A study of Mus musculus with 2 samples.

Results

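The miR-29 family is described here by 5 of the 1892 microRNA probes on mouse arrays, in unwounded skin and in unwounded oral mucosa. The arrays held 2 other probes of miR-29 precursors, given beside them. The 5 members were taken by their names in the array files: the guide arms mmu-miR-29a-3p, mmu-miR-29b-3p and mmu-miR-29c-3p, and the opposite arms mmu-miR-29a-5p and mmu-miR-29c-5p. The study asked which microRNAs are specific to oral mucosa, a tissue that heals faster than skin, and used the arrays to compare both tissues before injury. The samples came from female Balb/c mice 8 to 10 weeks old, untreated and without wounds. For each tissue, RNA pooled from 3 animals was put on 1 array with a single dye (Cy5), at 2 µg of total RNA. The methods speak of matched skin and oral mucosal samples and the results of epithelium, so how much tissue below the epithelium was included is not known.

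A microRNA is a short RNA that pairs with messenger RNAs, mostly through its seed near the 5′ end, and lowers their translation and stability. The miR-29 guide arms are known for many targets among the genes of the extracellular matrix, including fibrillar and basement membrane collagens, elastin and fibrillin, and lower miR-29 has been described in fibrosis of several organs. A precursor hairpin is cut into a 5p and a 3p arm, of which one is usually kept by the silencing complex (the guide) and the other mostly degraded. The genes lie in pairs that are transcribed together. No messenger RNA was measured on these arrays, and neither collagens nor any other target were analysed here.

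The sequences that the 5 probes were designed to detect are shown first because the members are told apart by few bases. Each was identical to the mature sequence in RefSeq (GRCm38.p6), and the capitals mark the seed, bases 2 to 8 counted from the 5′ end.
mmu-miR-29a-3p: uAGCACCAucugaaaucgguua
mmu-miR-29b-3p: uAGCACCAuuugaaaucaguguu
mmu-miR-29c-3p: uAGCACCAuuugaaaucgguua
mmu-miR-29a-5p: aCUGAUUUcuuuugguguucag
mmu-miR-29c-5p: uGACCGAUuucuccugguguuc

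The 3 guide arms shared 1 seed, and no other of the 1892 probes held it. miR-29c-3p differed from miR-29a-3p by a single base (C10U, position counted from 1 at the 5′ end, with the base of miR-29a-3p first). miR-29b-3p, at 23 bases 1 longer than both others, differed from miR-29c-3p at 3 of the 22 shared positions (G18A, U21G and A22U) and from miR-29a-3p at 4, the same changes and C10U. The opposite arms had seeds of their own. Counted from the 5′ end without a shift, miR-29a-5p and miR-29c-5p differed at 17 of 22 positions. Shifted against each other, as the sequences above show, they share most bases, so this count understates their likeness. Arms this much alike, guide or opposite, may bind to each other's probes, and the part of such binding in the signals was not tested.

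The hairpins of Mir29c and Mir29a show where the arms come from, with the 5p arm and then the 3p arm in capitals.
Mir29c: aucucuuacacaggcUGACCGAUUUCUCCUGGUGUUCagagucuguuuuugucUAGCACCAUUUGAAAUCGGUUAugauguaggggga
Mir29a: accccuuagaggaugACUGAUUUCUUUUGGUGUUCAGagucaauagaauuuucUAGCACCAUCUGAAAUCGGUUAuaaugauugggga

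Mir29c (chr1:195037547-195037634, plus strand, GRCm38.p6) gives miR-29c-3p at chr1:195037600-195037621 and miR-29c-5p at chr1:195037562-195037583. It lies 426 bases from Mir29b-2 (chr1:195037040-195037120), and both lie within the long noncoding RNA gene A330023F24Rik. Mir29a (chr6:31062660-31062747, minus strand) gives miR-29a-3p at chr6:31062673-31062694 and miR-29a-5p at chr6:31062711-31062732. It lies 275 bases from Mir29b-1 (chr6:31063023-31063093), and no other RefSeq gene overlapped that pair. The mature miR-29b-3p has the same sequence from Mir29b-1 (chr6:31063025-31063047) and Mir29b-2 (chr1:195037091-195037113), so its probe cannot tell the 2 loci apart.

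Each probe was printed as 2 repeat spots per array, and the signal of a spot is the deposited median Cy5 intensity, in scanner units. A probe was called detected where its mean exceeded the mean of the 16 empty spots by 3 SD, that is, 59.9 on the skin array and 71.8 on the other. Thereby 446 microRNAs were detected in skin, 510 in oral mucosa and 562 in at least 1 tissue. A tissue difference is the log2 value in oral mucosa minus that in skin after variance stabilizing normalization (VSN). This method takes an offset from each array and brings both to 1 scale, the oral mucosa array having been 1.37 times as bright as that of skin. Where only 1 tissue detected a probe, the other tissue was entered at its lowest detected signal, and the difference so obtained is called a floor value. Counts over all detected microRNAs include floor values. A floor value depends on the offsets that VSN took off and is no lower bound on the fold, since the scanner ratio, with background included, can be smaller. A difference of at least 2-fold in size was called. Its SD was computed from the repeat spots of the 2 arrays together and holds technical error only. With 1 array per tissue there is no replicate of a tissue, so no test was possible and no p-value is given. Brightness depends on the probe, so signals are compared between tissues and not between probes.

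Of the 5 members, 4 were detected in at least 1 tissue, and 2 of these differed by 2-fold or more, both with the higher signal in skin: miR-29c-3p and miR-29c-5p, the 2 arms of the Mir29c hairpin. Among all 562 detected microRNAs 160 (28.5%) differed by at least 2-fold, 77 (13.7%) towards oral mucosa and 83 (14.8%) towards skin. The median difference was -0.83 for the 3 guide arms and -0.00 for all detected microRNAs, with quartiles at -0.50 and 0.53. The former is the value of miR-29b-3p, between -1.59 for miR-29c-3p and 0.32 for miR-29a-3p, so the guide arms had no common direction.

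**Figure D1:**
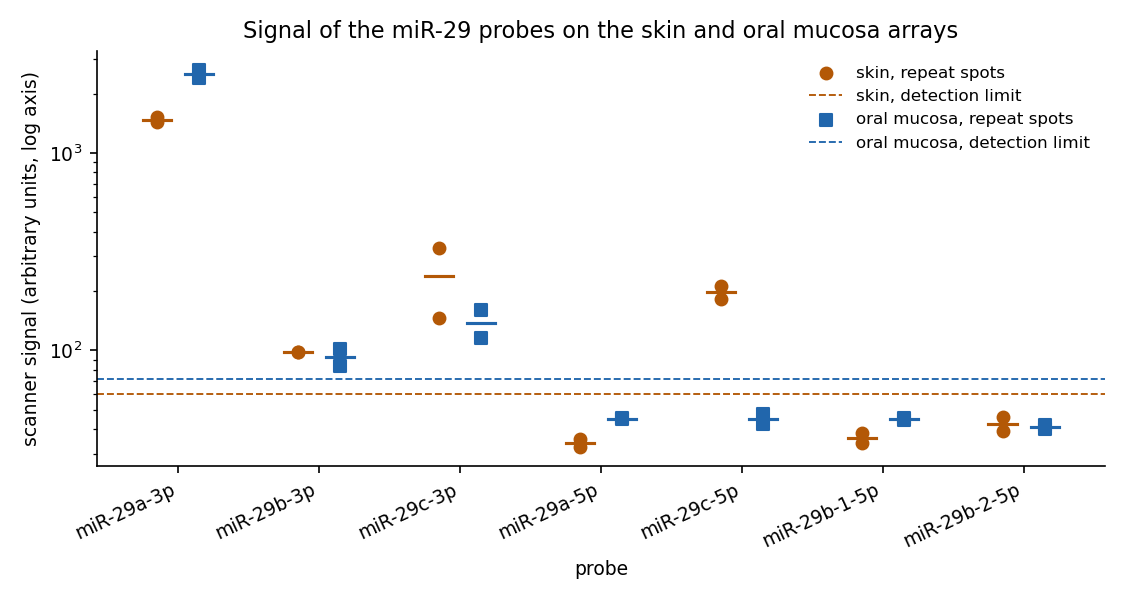
Signal of each repeat spot (median Cy5 intensity in scanner units, log axis) on the skin and the oral mucosa array, with the detection limit of each array. Shown are the 5 miR-29 members and the 2 other probes of miR-29 precursors, miR-29b-1-5p and miR-29b-2-5p. Both spots of miR-29c-5p lie at 182 and 211 in skin and at 42.4 and 47.6, below the limit, in oral mucosa, while those of miR-29a-3p lie above 1400 in both tissues.

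miR-29c-5p, the opposite arm of Mir29c, had signals of 211 and 182 in skin and 47.6 and 42.4 in oral mucosa. It was thus detected in skin alone, and the spots of the tissues lay far apart. The floor value was -3.08 (SD 0.19 over the skin spots). On the scanner scale, with no background removed, its mean was 4.38 times as high in skin (197 ± 20.3 against 45.0 ± 3.71, SD of 2 spots). In the authors' processed values it was 198 in skin and 0 in oral mucosa. The floor value lay between -3.51 (with the local background subtracted) and -1.45 (without normalization) in 11 other ways of processing, each past 2-fold, and was -1.87 in the authors' values.

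miR-29c-3p, the guide arm of the same hairpin, was detected in both tissues, with spots of 146 and 330 in skin and 160 and 116 in oral mucosa. The skin spots differed from each other 2.26-fold, and the lower of them was below the higher oral mucosa spot, so on the scanner scale the tissues overlapped. After VSN the skin spots stood at 6.99 and 8.42 and the oral mucosa spots at 6.60 and 5.89, with no overlap. The difference was -1.59 (SD 1.13), or 3.00-fold higher in skin, and 41 of 562 microRNAs (7.30%) lay as far or farther in that direction. It came mostly from 1 spot: the first repeat spots gave -0.39 and the second -2.53. The call of 2-fold was kept in 9 of 11 alternatives, and lost with the first spot alone (-0.34 in a fit of the first spots only) and without normalization (-0.79). In the processed values of the authors it was 246 in skin and 76 in oral mucosa.

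miR-29b-3p, the guide arm that Mir29b-1 and Mir29b-2 share, was close to the detection limit. Its spots read 98.1 and 98.1 in skin and 102 and 83.4 in oral mucosa. Scanner signals of the tissues overlapped, with an oral mucosa mean 0.945 times that of skin. On the VSN scale the skin spots were at 6.14 and 6.14 and those of oral mucosa at 5.57 and 4.99. The difference of -0.83 (SD 0.41) did not reach 2-fold, and 101 of 562 microRNAs (18.0%) were as far towards skin. It ranged from -1.18 to -0.08 over the alternatives, each below 0. Only with the second spot alone was it past 2-fold.

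miR-29a-3p, the guide arm of Mir29a, was the only member that was higher in oral mucosa. Its spots read 1517 and 1436 in skin and 2644 and 2394 in oral mucosa, with no overlap. Means were 1476 ± 57.2 and 2519 ± 177 (SD of 2 spots), a scanner ratio of 1.71, most of which was taken up by the scale between the arrays. After VSN a difference of 0.32 (SD 0.12) was left, or 1.25-fold, with 0.36 and 0.29 for the first and the second spots. It was larger than the repeat-spot error but common among all microRNAs, as 187 of 562 (33.3%) lay as far or farther towards oral mucosa. In the 11 alternatives it stayed above 0, between 0.09 and 0.77, and below 2-fold.

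miR-29a-5p, the opposite arm of Mir29a, was detected in neither tissue. Its spots read 32.5 and 35.6 in skin and 45.0 and 45.4 in oral mucosa, all below the mean of the empty spots on their array (36.4 ± 7.84 and 51.9 ± 6.65), and its processed values were 0 and 0. No difference is given for it. The other opposite arms on the arrays, miR-29b-1-5p and miR-29b-2-5p, were also below the limit in both tissues, with spots from 33.9 to 45.8 in skin and from 40.1 to 45.3 in oral mucosa. Of the 4 opposite arms, miR-29c-5p was thus the only one detected.

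**Figure D2:**
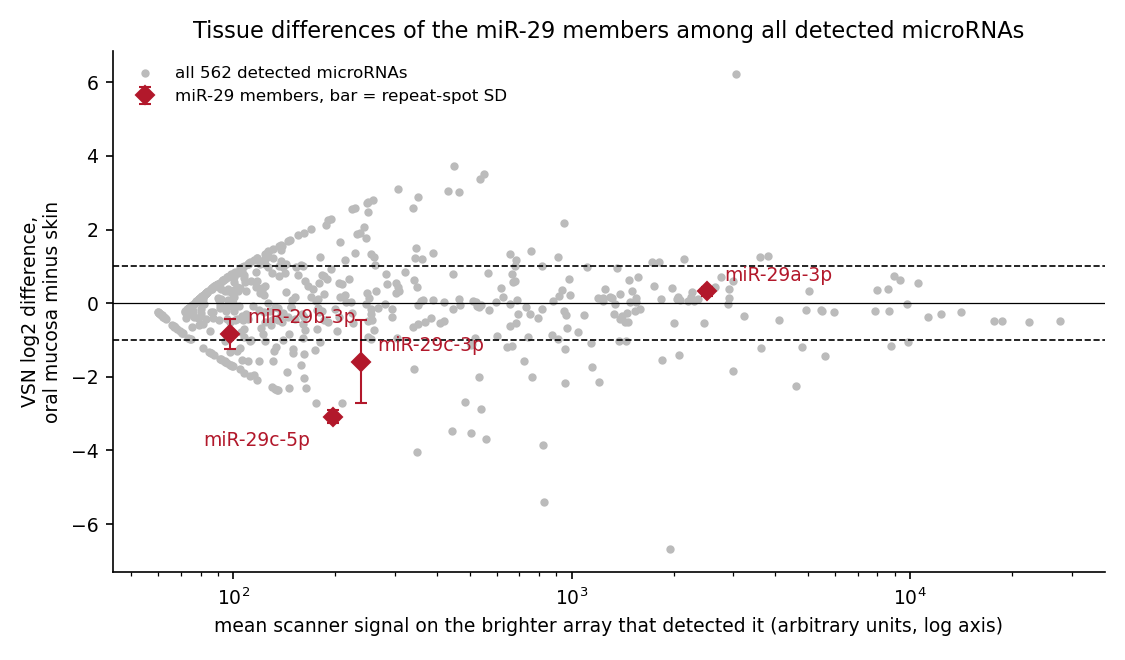
Tissue difference (oral mucosa minus skin, VSN log2) against the brighter signal of the 2 tissues (scanner units, log axis) for the 562 detected microRNAs in grey, with the miR-29 members in red and their repeat-spot SD as bars. miR-29c-3p (-1.59) and miR-29c-5p (a floor value of -3.08) lie below the line of 2-fold higher in skin, while miR-29b-3p (-0.83) and miR-29a-3p (0.32) lie between the lines.

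The members were also set against each other, as differences between their tissue differences, in 3 pairs of guide arms and 1 pair of arms of 1 hairpin. miR-29a-3p lay 1.16 (SD 0.43) above miR-29b-3p, with 0.92 from the first and 1.44 from the second spots and 0.74 to 1.43 over the alternatives. It lay 1.91 (SD 1.14) above miR-29c-3p, from which it differs by 1 base, with 0.74 and 2.82 from the spots and 0.73 to 2.79 over the alternatives. Of the guide arms miR-29a-3p was thus set apart from the other two in one direction by every spot pair. miR-29b-3p and miR-29c-3p could not be put in order: their distance of 0.76 was smaller than its SD of 1.20, and the spots gave -0.18 and 1.38. Within the Mir29c hairpin the guide arm lay 1.49 (SD 1.14) above the floor value of the opposite arm, that is, less far towards skin, with 0.36 to 2.87 over the alternatives.

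**Figure D3:**
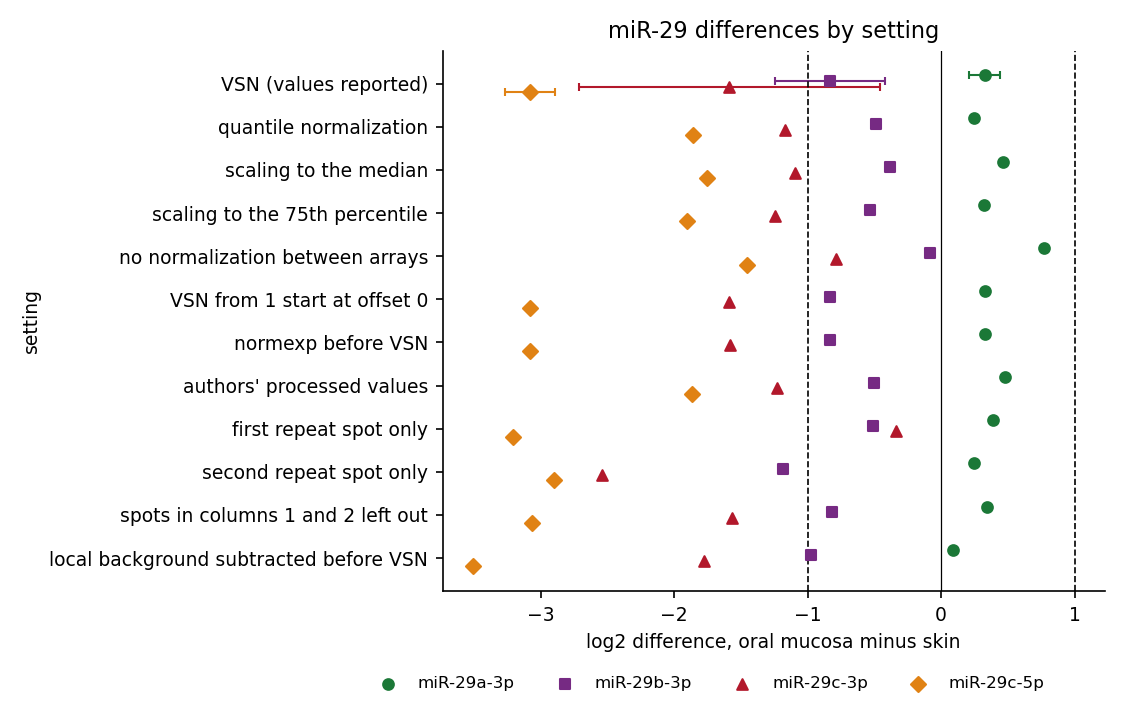
Tissue difference (oral mucosa minus skin, VSN log2 or its counterpart) of the 4 detected members under the main processing and each of the 11 alternatives, with dashed lines at 2-fold. miR-29a-3p stays above 0 (0.09 to 0.77), miR-29b-3p and miR-29c-3p stay below 0, and miR-29c-5p, a floor value, stays past 2-fold (-3.51 to -1.45).

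The place of the spots on the array moved with these values. The first spots of miR-29b-3p, miR-29c-3p and miR-29c-5p lay together at rows 2, 3 and 4 of column 20, and their second spots at rows 115, 116 and 117 of column 4. Among the probe spots within 3 rows and columns of the first spots the median signal was 50.7 to 53.1 in skin and 54.5 to 57.5 in oral mucosa, so oral mucosa was above skin by 0.10 to 0.11 (log2). Around the second spots it was 34.5 to 36.0 in skin and 48.9 to 51.8 in oral mucosa, a step of 0.41 to 0.47, against 0.31 over all 3784 probe spots. The skin background was thus higher near the first spots.

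For subtraction the local median was taken over the surrounding spots of probes detected in neither tissue, not over all probe spots. With it subtracted, on the scanner scale, miR-29c-3p had 99.7 and 296 in skin and 111 and 71.7 in oral mucosa. Not scaled between the arrays, its first spots still gave no higher signal in skin. miR-29b-3p had 50.9 and 64.4 against 52.9 and 38.9, also with the higher unscaled signal in skin at the second spot alone. miR-29c-5p had 165 and 149 in skin and values below 0 in oral mucosa (-1.53 and -3.65), alike at both places. After VSN without the subtraction, the first spots lay towards skin, at -0.39 for miR-29c-3p and -0.57 for miR-29b-3p. VSN after this subtraction, a setting chosen after the data had been seen, gave differences of 0.09 for miR-29a-3p, -0.98 for miR-29b-3p, -1.78 for miR-29c-3p and -3.51 as the floor value of miR-29c-5p.

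miR-29a-3p was the one member with clear signals in both tissues, so the microRNAs nearest to it were sought by Euclidean distance of the VSN values over the 2 arrays. These were miR-2861 (distance 0.09), miR-669c-3p (0.14) and let-7g-5p (0.17), whose tissue differences were 0.44 (SD 0.22), 0.12 (SD 0.42) and 0.16 (SD 0.41). With 2 arrays this likeness says only that both signals were about as bright.

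Other microRNAs known for a part in fibrosis or matrix production were described as a list of 22, all on the arrays, of which 19 were detected and 15 in both tissues. Of the 19, 4 were at least 2-fold higher in oral mucosa, 4 at least 2-fold higher in skin and 11 below 2-fold. The share past 2-fold was 42.1%, beside the 28.5% of all detected microRNAs, and the median difference 0.17, beside -0.00. The list thus had no common direction.

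The 4 that were higher in oral mucosa are also markers of mesenchyme. miR-214-3p, which is transcribed with miR-199a from an antisense transcript of Dnm3, read 198 and 171 in skin and 956 and 940 in oral mucosa (difference 2.17, SD 0.19). miR-145a-5p, known from smooth muscle and from the differentiation of myofibroblasts, read 83.6 and 76.8 in skin and 260 and 233 in oral mucosa (1.78, SD 0.21). miR-143-3p, its neighbour in the genome, was detected in oral mucosa alone, with 57.3 and 56.7 against 172 and 167, a floor value of 2.02 (SD 0.05). These had spots far apart between the tissues. miR-199a-5p, which has been linked to the activation of fibroblasts, read 77.8 and 80.3 in skin and 167 and 154 in oral mucosa (1.01, SD 0.13) and was past 2-fold in 5 of 11 alternatives.

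The 4 on the side of the Mir29c arms were miR-101a-3p, miR-200c-3p, let-7d-5p and miR-196a-5p. miR-101a-3p, which targets the methyltransferase gene Ezh2, read 161 and 162 in skin and 77.9 and 97.1 in oral mucosa (-2.04, SD 0.48). miR-200c-3p, an epithelial microRNA that represses Zeb1 and Zeb2, read 4144 and 3092 in skin and 2497 and 1801 in oral mucosa (-1.22, SD 0.46). let-7d-5p, which targets Hmga2, read 3987 and 5612 in skin and 2987 and 2833 in oral mucosa (-1.19, SD 0.36). None of the 3 had overlapping spots. miR-196a-5p, encoded within the Hox clusters, was detected in skin alone (102 and 94.6 against 39.9 and 43.5, floor value -1.68, SD 0.12). These calls were kept in 10, 9, 7 and 6 of 11 alternatives in the order given.

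The 11 below 2-fold lay between -0.94 for miR-19b-3p, of the miR-17-92 cluster, and 0.71 for miR-133a-3p, a muscle microRNA. They included miR-21a-5p, which is raised in many fibrotic tissues, at 0.17, and miR-30a-5p at 0.13. miR-155-5p, miR-129-5p and miR-7a-5p were detected in neither tissue.

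**Figure D4:**
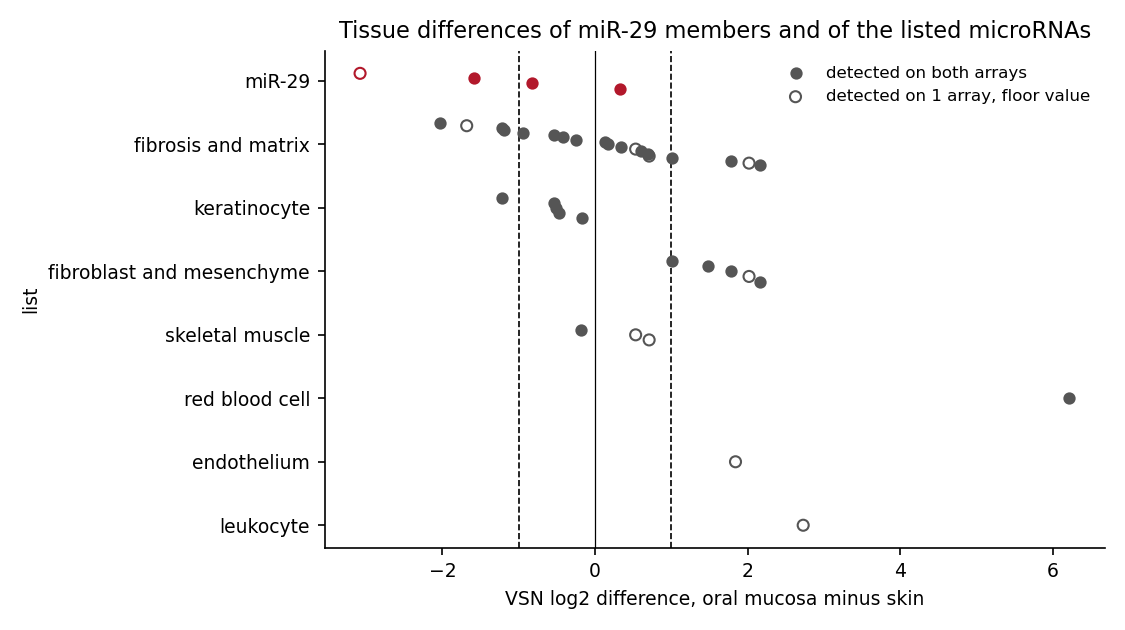
Tissue difference (oral mucosa minus skin, VSN log2) of the detected miR-29 members and of the detected microRNAs of the fibrosis and matrix list and of the cell type marker lists, 1 point per microRNA (open where detected in 1 tissue, a floor value), with dashed lines at 2-fold. The 5 mesenchyme markers lie at 1.01 to 2.17 and the 5 keratinocyte markers at -1.22 to -0.17, while miR-29 members lie from -3.08 to 0.32.

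The tissue labels were set against marker microRNAs. Summed signals are scanner means with background included, not scaled between the arrays, and take in probes below the limit. All 5 keratinocyte markers were detected in both tissues, with summed signals of 47902 in skin and 45486 in oral mucosa. Their differences were -1.22 to -0.17, with 1 past 2-fold, towards skin. This range holds for the markers listed only. Of the miR-200 family, miR-200a-3p and miR-429-3p were not among them and lay towards oral mucosa, at 0.70 and 1.12. Of the 5 mesenchyme markers 4 were detected in skin and 5 in oral mucosa, with summed signals of 516 and 1871. All 5 were at least 2-fold higher in oral mucosa (median 1.78), beside 13.7% of all detected microRNAs. For miR-143-3p this is a floor value, and miR-199a-5p was past 2-fold in 5 of 11 alternatives. The markers share loci, as given above, so they are not separate signs of mesenchyme. Epithelial signal was thus present on both arrays, with more mesenchymal signal on that of oral mucosa, the tissue where the Mir29c arms were lower.

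Of the markers of blood and vessels 1 per class was past 2-fold, each towards oral mucosa. Among red blood cell markers miR-451a had a mean of 67.3 in skin and 3056 in oral mucosa (6.21), miR-144-3p was detected in neither, and the sum was 105 against 3106. Of the endothelial pair, 1 passed the limit, in oral mucosa alone: miR-126a-3p, with sums of 81.6 and 200.2 for the pair. Its floor value was 1.84 (SD 0.70), from spots of 191 and 119 in oral mucosa, and was past 2-fold in 9 of 11 alternatives. Of the 3 leukocyte markers on the arrays, 1 passed the limit, also in oral mucosa alone: miR-150-5p of lymphocytes (floor value 2.73, sums 140 and 353). Both miR-223-3p of myeloid cells and miR-155-5p were detected in neither tissue. The skin sums of the endothelial and the leukocyte markers came from probes below the limit alone. Empty spots averaged 36.4 in skin and 51.9 in oral mucosa, so each sum holds background. Of the 4 skeletal muscle markers 1 was detected in skin and 3 in oral mucosa, and none was past 2-fold (sums 297 and 428). The part of these cell types in the miR-29 values was not tested. In bulk RNA, fewer cells of a type and less RNA per cell cannot be told apart.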

How the data were processed

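Per the labels and the methods, RNA from each tissue was hybridised to 1 single-colour mouse microRNA array. The authors deposited the median Cy5 intensity of every spot, neither background-corrected nor scaled, and a processed intensity per microRNA whose method is not given in the sources used here. The processed values served as an alternative with 50 added before log2.

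Control spots were left out (184 of 3968), repeat spots averaged, and VSN fitted in Python 3.11.15 (numpy 2.4.6, scipy 1.17.1, pandas 2.3.3) by trimmed maximum likelihood, keeping 90% of the probes in each of 5 slices except the dimmest. normexp was run with an offset of 50 in limma 3.58.1 (R 4.3.3). Figures were drawn with matplotlib 3.10.9. The procedure was tested on simulated data, and no result of that test is given here. The methods' CyberT test was not run, as repeat spots are no replicates of a tissue. A microRNA detected in 1 tissue was given a floor value, with the other tissue at its own signal there or at the lowest detected one, whichever was higher.

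Named were the members, other miR-29 probes, probes with their seeds, the 3 nearest to miR-29a-3p, and list members past 2-fold. Of the miR-29 probes only miR-29b-2-5p shared its seed with a probe outside the family, miR-6338. Others named, in the lists or beside them, were picked after their values were seen. Members and lists were chosen with earlier results of these data known. Sequences and loci came from the array files and RefSeq tables. The number of arrays limits the precision.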

Additional observations from a re-analysis of the deposited data

How the results depend on the processing

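No paired analysis was possible because skin and oral mucosa were measured on 1 array each. Over the alternatives no difference of a detected member changed its sign. The count of members past 2-fold, 2 in the main processing, became 1 without normalization, with the first repeat spot alone and at a 4-fold rule, where miR-29c-5p was left, and 1 among microRNAs detected in both tissues, where miR-29c-3p was left. It was 3 with the second spot alone and at 1.5-fold. The median difference of the 3 guide arms, -0.83, became -0.39 with median scaling, -0.081 without normalization and -0.34 with the first spot alone, and lay from -1.18 to -0.08. The count of all microRNAs past 2-fold, 160, was 80 with quantile normalization, 85 with median scaling, 85 with scaling to the 75th percentile, 102 without normalization, 87 in the processed values, 577 with no detection filter, 104 among those detected in both tissues, 256 at 1.5-fold and 46 at 4-fold. The share of these that were higher in oral mucosa, 48.1%, was 78.4% without normalization, where the median of all detected microRNAs was 0.40, and 36.3% with the local background subtracted, where it was -0.15. VSN from a single start gave the same 160. A signal near the empty spots, as for miR-29b-3p in oral mucosa, limits what a difference can show more than that of miR-29a-3p, and with 1 array per tissue no alternative adds a replicate.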
